A study of Mus musculus with 9 samples.

Results

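The wobble uridine tRNA modification genes described here are Ctu1, Ctu2, Urm1, Mocs3, Nfs1, Trmu, Elp2, Elp3 and Elp4. They were taken by gene symbol, and they are 9 of the 22564 genes of the table, each with a single row. Ctu2 was chosen by its measured difference between the dICSI-AOA and ICSI-AOA libraries, and the others are partners of its pathway, so the Ctu2 values below are a description and carry no test. RNA was sequenced from C57BL/6 mouse blastocysts collected on day 3.5, in 9 libraries of 5 pooled blastocysts each. All oocytes were fertilized by intracytoplasmic sperm injection (ICSI), with oocytes from females of 4 to 6 weeks and sperm from males of 8 to 12 weeks. The ICSI group (replicates 2, 5 and 6) received normal sperm and no ionomycin. The ICSI-AOA group (replicates 1, 4 and 5) received normal sperm followed by artificial oocyte activation (AOA) with 2.5 µM ionomycin, a calcium ionophore, for 10 min from 30 min after injection. The dICSI-AOA group (replicates 1, 4 and 5) received the same ionomycin treatment after injection of sperm heads made deficient in oocyte activation by incubation for 4 h at 37 °C. Deficient sperm without ionomycin were not analysed here, so the effect of the sperm alone cannot be told apart from that of the sperm with ionomycin.

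The first base of a tRNA anticodon, the wobble base, pairs with the third base of a codon, and in the tRNAs for lysine, glutamate and glutamine this base is a modified uridine. In the cytosol, Elongator, whose subunits include Elp2, Elp3 and Elp4, begins the side chain on the ring of the uridine, and a pair of proteins, Ctu1 and Ctu2, replaces an oxygen of the same ring with sulfur. The sulfur comes from the cysteine desulfurase Nfs1 and is passed through Mocs3, an activating enzyme, to Urm1, a ubiquitin-like protein that serves as sulfur carrier. In mitochondria, Trmu carries out the thiolation, and Mto1 and Gtpbp3 build the side chain. The modified base helps the ribosome decode A-ending codons at normal speed, and loss of the pathway in yeast slows translation and stresses protein folding.

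The substrates of Trmu are shown first, since they show which base the pathway acts on. The mature DNA sequences of the mouse mitochondrial tRNAs for lysine (mt-Tk, chrM:7700-7764, + strand), glutamate (mt-Te, chrM:14071-14139, − strand) and glutamine (mt-Tq, chrM:3772-3842, − strand) are from GENCODE vM21 on mm10, with the anticodon in capitals. The first capital T of each is the wobble uridine in the RNA.
mt-Tk: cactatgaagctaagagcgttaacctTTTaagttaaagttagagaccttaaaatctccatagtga
mt-Te: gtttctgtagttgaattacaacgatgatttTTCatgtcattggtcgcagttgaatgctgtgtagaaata
mt-Tq: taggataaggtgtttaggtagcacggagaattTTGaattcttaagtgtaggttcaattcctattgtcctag

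Promoters are shown for the thiolation pair, of which only Ctu2 had fragments, and for Trmu, the other gene tested. RefSeq promoter sequences (GRCm38.p6) matched 7 of the 9 genes (Ctu1, Ctu2, Urm1, Mocs3, Nfs1, Trmu and Elp4), each with 250 bases before and 50 bases after the RefSeq start, which differs from the GENCODE start given below for Ctu1 and Trmu. The windows lie at chr8:122475893-122476192 (Ctu2), chr7:43671781-43672080 (Ctu1) and chr15:85879077-85879376 (Trmu), all on the + strand. Capitals mark the motifs found.
Ctu2 promoter: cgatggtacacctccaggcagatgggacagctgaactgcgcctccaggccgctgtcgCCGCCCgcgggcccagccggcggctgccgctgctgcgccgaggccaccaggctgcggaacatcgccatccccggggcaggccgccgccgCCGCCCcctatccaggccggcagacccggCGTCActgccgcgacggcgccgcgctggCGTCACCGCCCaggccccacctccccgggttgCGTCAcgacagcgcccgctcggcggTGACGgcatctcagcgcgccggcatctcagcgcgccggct
Ctu1 promoter: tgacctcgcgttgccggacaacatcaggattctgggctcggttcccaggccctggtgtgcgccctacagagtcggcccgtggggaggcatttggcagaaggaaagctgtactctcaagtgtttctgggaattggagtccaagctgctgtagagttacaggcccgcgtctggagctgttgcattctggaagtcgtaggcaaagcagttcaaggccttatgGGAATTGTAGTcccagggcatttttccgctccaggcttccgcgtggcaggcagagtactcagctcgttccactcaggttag
Trmu promoter: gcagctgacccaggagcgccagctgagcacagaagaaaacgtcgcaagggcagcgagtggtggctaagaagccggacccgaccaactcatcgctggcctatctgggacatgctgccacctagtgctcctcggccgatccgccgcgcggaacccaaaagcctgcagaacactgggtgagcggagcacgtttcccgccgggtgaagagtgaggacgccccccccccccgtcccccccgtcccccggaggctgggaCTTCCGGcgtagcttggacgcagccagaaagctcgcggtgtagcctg

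The Ctu2 window was 77.0% G and C with 44 CpG dinucleotides, against 56.7% and 14 for Ctu1 and 66.7% and 26 for Trmu. It also holds the 5′ end of Rnf166, which runs the other way (− strand, chr8:122466147-122476064). The bases of the window up to 122476064 thus lie within Rnf166, and its letters are not those of Ctu2 alone. All motifs were searched on both strands. The CREB half-site CGTCA or its complement TGACG was found 4 times in the Ctu2 window, and 0.231% of the 32851 RefSeq promoters of the same length hold 4 or more, while 20.8% hold at least 1. The SP1 box GGGCGG, on the other strand CCGCCC, was found 3 times there, and 10.7% of promoters hold 3 or more. One of these directly follows a CGTCA without sharing a base with it. The ZNF143 motif, whose letters on the other strand are the capitals of the Ctu1 window, was in 0.286% of promoters. The ETS motif CCGGAAG, on the other strand CTTCCGG, was in the Trmu window and in 8.86% of promoters. Nfs1 and Mocs3 each held 2 ETS motifs and Urm1 held 1. Mocs3 also held 2 CREB half-sites. The motifs were chosen with the sequences in view, and the promoters they are set beside were not matched for G and C, so the shares are a description. These are matches of letters and were not tested for binding.

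The deposited counts were estimated, but 95.7% to 96.2% of the values above 0 in each library lay within 0.01 of whole multiples of 1 step, so they were divided by that step and rounded to fragments. Libraries held 128176 to 172307 fragments, 1788 to 2033 genes per library had 10 or more, and 10436 genes were listed at 0 in every library. The 4304 genes with a mean FPKM (fragments scaled by transcript length and library size) of at least 1 were tested. Genes that every cell uses were also low, with Gapdh, of glycolysis, at 1 to 4 fragments per library and Actb, of the cytoskeleton, at 4 to 12, while mitochondrial mt-Nd5 had 5990 to 12081. A gene at 0 here is therefore only listed at 0. Each blastocyst marker list was thin. Trophectoderm markers summed to 17 to 35 fragments in ICSI, 6 to 10 in ICSI-AOA and 11 to 16 in dICSI-AOA, with 4 of 8 genes above 0 and Gata3, Tfap2c, Tead4 and Eomes at 0. Epiblast markers had 4 fragments in all, with Pou5f1, Nanog and Sox2 among the 7 of 8 genes at 0. The 6 primitive endoderm markers had 40, the 8 cumulus cell markers 8, the 8 oocyte markers 4 and the 8 sperm markers 8, with Prm1 and Prm2 at 0. The paper describes the replicates of a group as independent pools, and the p-values below measure the spread between these libraries.

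The 9 wobble uridine genes had 295 fragments in all 9 libraries together, and Ctu2 alone held 246 of them, or 83.4%. Elp4 had 24 and Trmu 20. Nfs1 and Mocs3 had 2 each and Elp2 had 1. Ctu1, Urm1 and Elp3 were at 0 in every library. With 1370462 fragments in all, a total of 0 allows a level of up to 2.19 CPM (counts scaled to library size) before TMM scaling, a limit that covers counting error only, as do all counting intervals below. Thus 3 of 9 genes (33.3%) were at 0, against 46.3% of all genes of the table, and 2 of 9, Ctu2 and Trmu, passed the filter for testing.

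**Figure D1:**
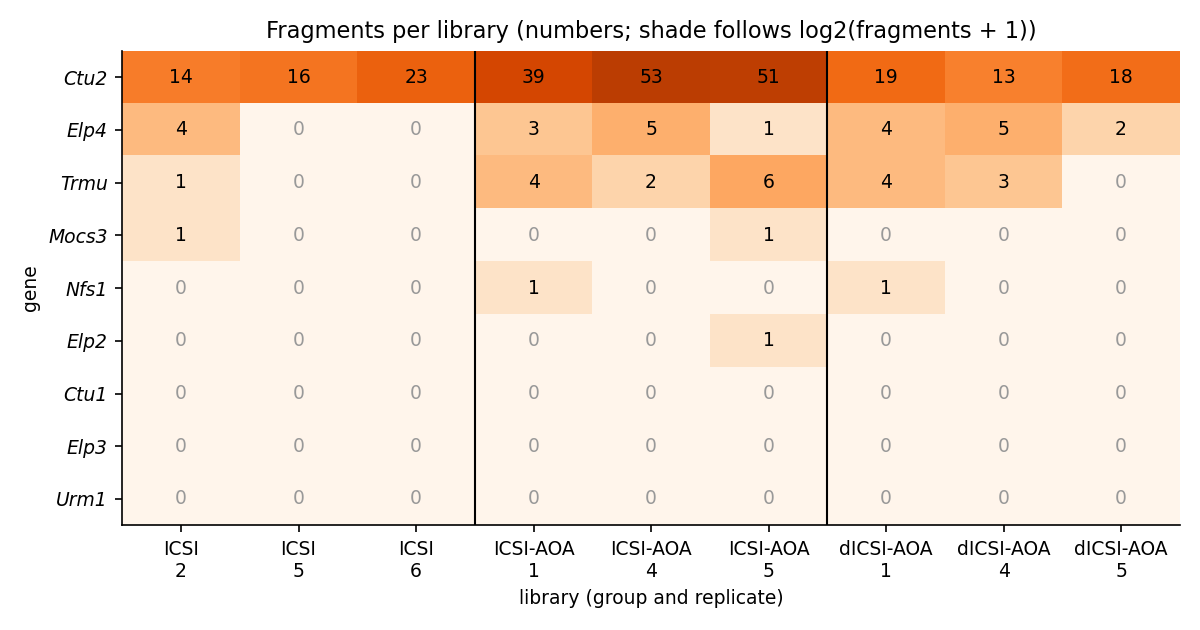
Fragments of the 9 genes (rows, ordered by total) in the 9 libraries (columns, by group and replicate), with the number of fragments written in each cell and the shade following log2(fragments + 1). Ctu2 is in every library, highest in the 3 ICSI-AOA libraries (39, 53 and 51), and 3 genes are at 0 throughout.

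The thiolation pair had unequal fragments in these files, in which Gapdh had no more than 4 per library. Ctu1, which lies at chr7:43672016-43678298 and is the subunit thought to hold the catalytic site, had no fragment. Ctu2, its partner at chr8:122476143-122484138 (ENSMUSG00000049482, + strand), ranked 923 of 22564 genes by total fragments. Per kilobase of the longest annotated transcript, Ctu2 had 61.5 fragments over the 9 libraries (95% counting interval 54.1 to 69.7), while a count of 0 allows up to 1.21 for Ctu1.

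Ctu2 had 14, 16 and 23 fragments in ICSI replicates 2, 5 and 6. It had 39, 53 and 51 in ICSI-AOA replicates 1, 4 and 5, and 19, 13 and 18 in dICSI-AOA replicates 1, 4 and 5. All 3 ICSI-AOA libraries lay above all 6 others, and the ICSI and dICSI-AOA libraries overlapped. Groups did not overlap in either direction for 13.3% of genes tested between ICSI-AOA and ICSI and for 12% between dICSI-AOA and ICSI-AOA. In deposited estimated counts the values were 12.1, 14.9 and 22.8 for ICSI, 49.8, 46.7 and 51.7 for ICSI-AOA, and 22.01, 14.5 and 18.5 for dICSI-AOA. None of the 9 values departed from whole fragments by more than 0.01. A whole total does not show from which of several overlapping genes a fragment came. Ctu2 is 1 of 75 genes listed with the same deposited interval. Gm20388, whose limits enclose Ctu2 on the same strand, had 1 fragment in all.

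In CPM after TMM scaling, Ctu2 was at 129 ± 35.6 (mean ± SD, n = 3) in ICSI, 321 ± 50.5 in ICSI-AOA and 109 ± 16.8 in dICSI-AOA. Ratios of summed fragments were scaled to library size after TMM. For Ctu2 they were 2.505 for ICSI-AOA over ICSI, 0.341 for dICSI-AOA over ICSI-AOA and 0.854 for dICSI-AOA over ICSI. They are given without intervals since Ctu2 was chosen on these libraries. The fitted log2 fold changes of these comparisons were 1.32, −1.55 and −0.23. The last is close to 0 and changed sign with the deposited scaling (0.15, where the median of all genes tested was 0.36), with the replicate block (0.16) and without ICSI replicate 6 (0.02). In 88 of the 4304 genes tested (2.04%) every ICSI-AOA library lay above the other 6, and Ctu2 is one of them by its choice.

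Deposited FPKM gave the same order of groups. Ctu2 was at 4.202, 3.51 and 4.78 FPKM in the ICSI libraries, 10.1, 9.52 and 10.7 in the ICSI-AOA libraries, and 4.49, 2.95 and 3.78 in the dICSI-AOA libraries. The means were 4.17 ± 0.638, 10.1 ± 0.589 and 3.74 ± 0.771 (SD, n = 3). Counting alone gives a variance of scaled fragments equal to their mean, and for Ctu2 the ratio of the variance to the mean was 1.44 in ICSI, 1.16 in ICSI-AOA and 0.378 in dICSI-AOA. Summed trophectoderm markers were lowest in the ICSI-AOA libraries (6 to 10 fragments, against 11 to 35 in the others), where Ctu2 was highest, and their part in the result was not tested. In pooled embryos fewer cells of a type and less RNA per cell cannot be told apart.

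The 3′ end of Ctu2 lies across the 3′ end of Piezo1, which encodes a mechanically gated cation channel and is transcribed from the − strand (chr8:122481698-122551329). Their exons share 2441 bp in GENCODE vM21. The longest protein-coding transcript of Ctu2 is 3066 bp, of which 1395 bp lie over exons of Piezo1, all of them in the last exon of Ctu2. The longest transcript of all is 3999 bp, is annotated to nonsense-mediated decay and has the whole 2441 bp of overlap. The main Piezo1 transcript of 8216 bp has 1409 bp over exons of Ctu2.

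**Figure D2:**
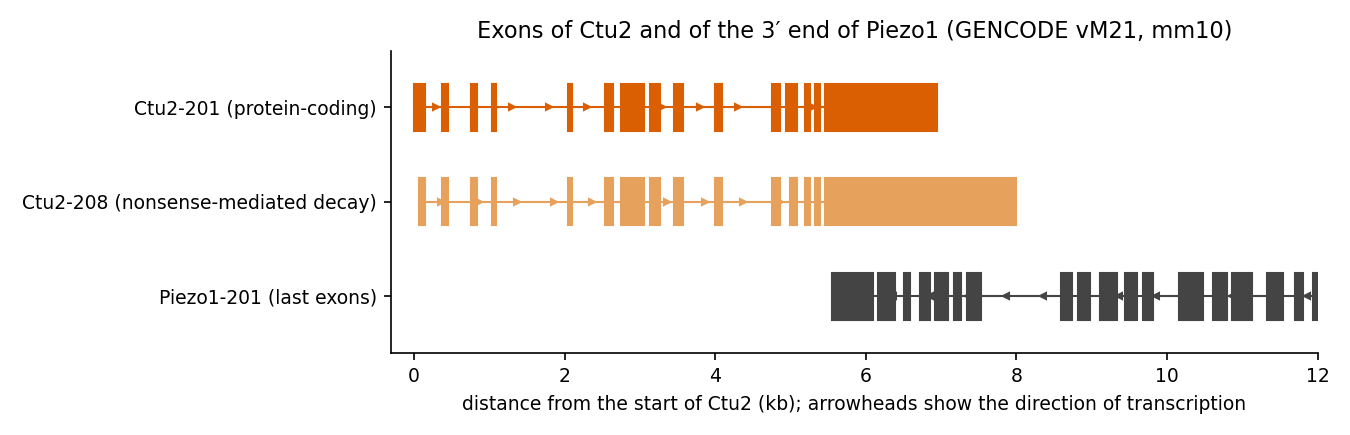
Exons (boxes) and introns (lines) of the protein-coding and the nonsense-mediated decay transcript of Ctu2 and the last exons of Piezo1, by distance from the start of Ctu2 in kb, with arrowheads in the direction of transcription. The genes run toward each other, and the last exon of both Ctu2 transcripts lies over exons of Piezo1.

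Piezo1 had 30, 19 and 28 fragments in the ICSI libraries, 40, 31 and 32 in the ICSI-AOA libraries, and 54, 43 and 49 in the dICSI-AOA libraries. Its order differed from that of Ctu2. In fragments and CPM the dICSI-AOA libraries lay above all others. ICSI libraries lay below all ICSI-AOA libraries in fragments, but the 2 groups overlapped in CPM. Deposited FPKM of Piezo1 was 8.40, 7.51 and 10.7 for ICSI, below every other library. ICSI-AOA libraries had 25.4, 17.1 and 15.6 FPKM. They overlapped the dICSI-AOA libraries, at 37.4, 17.4 and 23.9, so the separation of dICSI-AOA was not seen on this scale. Piezo1 was at 190 ± 59.8 CPM in ICSI, 231 ± 33.5 in ICSI-AOA and 319 ± 26.0 in dICSI-AOA (mean ± SD, n = 3). By edgeR's quasi-likelihood test its log2 fold change was 0.76 (SE 0.27, adjusted p = 0.520 over the 4304 genes) for dICSI-AOA over ICSI, 0.30 (SE 0.27, adjusted p = 0.877) for ICSI-AOA over ICSI and 0.46 (SE 0.26, adjusted p = 0.782) for dICSI-AOA over ICSI-AOA. The first passed a fold of 1.3 and an unadjusted p of 0.05, the rule by which a gene is said to be called here, and was lost without ICSI replicate 5 (0.51). For ICSI-AOA over ICSI, limma on log2(FPKM + 1) called Piezo1 (1.03), where the median of all genes tested was 0.20.

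Of the fragments given to either gene, Ctu2 took 31.8%, 45.7% and 45.1% in the ICSI libraries, 49.4%, 63.1% and 61.4% in the ICSI-AOA libraries, and 26.0%, 23.2% and 26.9% in the dICSI-AOA libraries. The widest 95% Wilson interval was 30.5% to 61.8%, in ICSI replicate 5. The share was highest in the ICSI-AOA group and lowest in the dICSI-AOA group, with no overlap between the values of the 3 groups. Ctu2 was chosen by its difference between dICSI-AOA and ICSI-AOA, whose libraries enter all 3 comparisons. The separation of all 3 groups is therefore a description, and how often other gene pairs separate in this way was not tested. Intervals of single libraries did overlap between groups, as for ICSI replicate 5 and ICSI-AOA replicate 1 (38.6% to 60.2%). The sum of Ctu2 and Piezo1 was 319 ± 79.4 CPM in ICSI, 552 ± 17.1 in ICSI-AOA and 427 ± 41.2 in dICSI-AOA. Over the 9 libraries the Pearson correlation of Ctu2 with Piezo1 on log2(CPM + 1) was −0.13, and 0.20 with the group means taken out of both, with counting error in both.

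**Figure D3:**
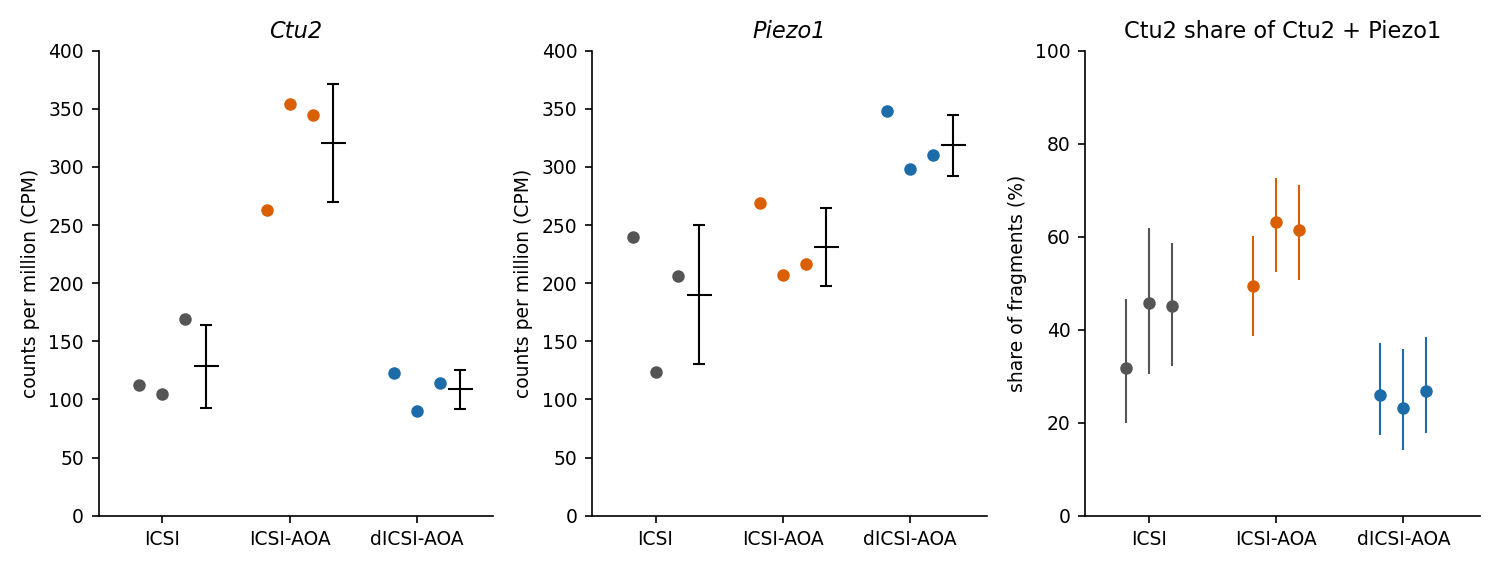
CPM of Ctu2 (left) and Piezo1 (middle) in each library (points) with the mean ± SD of the 3 libraries of a group (black bars), and the share of Ctu2 in the fragments of both genes with its 95% Wilson interval (right). Ctu2 is highest in ICSI-AOA (321 CPM) and Piezo1 in dICSI-AOA (319 CPM).

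Whether a fragment listed under Ctu2 came from the Ctu2 or the Piezo1 strand was not tested. Both kits named for these libraries keep the strand, and the setting used to count is not given in the sources used here. Of all fragments 60.5% fell in the 4286 genes that share at least 100 bp of exon with an opposite-strand gene. Of these genes 857 were at 0 in every library, against 9006 (51.3%) of the 17553 genes without such a partner. Among the wobble uridine genes, Ctu2 and Nfs1 have one and the other 7 have none, so 248 of the 295 fragments were in the pair with a partner.

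Around Ctu2, the other 11 genes of the table that reach within 100 kb were mostly near 0. Zc3h18 had 254 fragments, from 19 to 27 under ICSI-AOA and from 22 to 37 in the other libraries, and it and Piezo1 were the only neighbours with more than 18. Rnf166, which starts beside Ctu2 and runs the other way, had 1 fragment. A change of Rnf166 could not be seen at this depth, and the libraries of Zc3h18 overlapped between all 3 groups.

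Among the 4303 other genes tested, 5 had a Pearson correlation with Ctu2 above 0.9 over the 9 libraries, on log2(CPM + 1). They were Syt12 (0.93), a synaptotagmin, Ppp2r5a (0.92), a regulatory subunit of protein phosphatase 2A, Cox4i1 (0.92), a subunit of cytochrome c oxidase, Prss48 (0.92), a serine protease, and Elmo3 (0.91). Syt12 had 70, 89 and 97 fragments in ICSI, 118, 167 and 162 under ICSI-AOA, and 72, 81 and 75 under dICSI-AOA. Prss48 had 22 to 27 in ICSI, 30 to 45 in ICSI-AOA and 21 to 25 in dICSI-AOA. Cox4i1 had 6 fragments in all, so its likeness rests on very few counts. With the group means taken out of both genes, the closest were Slc25a37 (0.97), Wnk3 (0.96), A530032D15Rik (0.95), Zfp865 (0.95) and Slc6a8 (0.94), and none of these was among the first 5. The points share libraries and depth, and no other wobble uridine gene was among the 10. Ctu2 was chosen by a difference between groups, so genes with the same group pattern rank high over the 9 libraries, and this likeness is a description. Of the first 5, Syt12 and Cox4i1 overlap a gene on the other strand (A930001C03Rik and Emc8), and Ppp2r5a, Prss48 and Elmo3 do not.

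Trmu, the enzyme that thiolates mitochondrial tRNAs (chr15:85879312-85897394, + strand, ENSMUSG00000022386), was the only other gene of the 9 above the filter, with a mean of 1.98 FPKM. Its mean in the ICSI libraries was 0.120 FPKM, so it passed the filter through the AOA libraries alone, and a gene that passes in this way tends to differ from ICSI. It had 1, 0 and 0 fragments in the ICSI libraries, 4, 2 and 6 in the ICSI-AOA libraries, and 4, 3 and 0 in the dICSI-AOA libraries. In FPKM these were 0.361, 0 and 0, then 2.09, 2.13 and 6.47, then 2.83, 3.94 and 0. Every ICSI-AOA library lay above every ICSI library, as for 13.3% of genes tested in either direction, and dICSI-AOA replicate 5 lay at 0 with 2 of the ICSI libraries.

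For ICSI-AOA over ICSI, Trmu had a fitted log2 fold change of 3.08 (SE 1.24, adjusted p = 0.599 over 4304 genes, edgeR). It was past the fold of 1.3 and the unadjusted p of 0.05, as were 7.06% of all genes, but not an adjusted p of 0.05. Because of how Trmu came through the filter, this is a description of its values and no support for a change. With no filter 5 members other than Ctu2 could be fitted, of which Trmu alone was called for ICSI-AOA over ICSI and none in the other comparisons, where 4.36%, 3.85% and 4.15% of all genes were called for ICSI-AOA over ICSI, dICSI-AOA over ICSI and dICSI-AOA over ICSI-AOA. At an adjusted p of 0.05, edgeR called 0.0232%, 0.0232% and 0.139% of genes for ICSI-AOA over ICSI, dICSI-AOA over ICSI and dICSI-AOA over ICSI-AOA. The 12 fragments against 1 give a ratio of 11.1 after scaling to library size, with a 95% counting interval of 1.65 to 476. The call was lost without ICSI replicate 5 (2.56), ICSI replicate 6 (2.63) or ICSI-AOA replicate 5 (2.67), and with the replicate block (4.85). The summed trophectoderm markers ran the other way (17 to 35 fragments in ICSI and 6 to 10 in ICSI-AOA), and their part in the result was not tested.

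For dICSI-AOA over ICSI, the same gene did not pass (log2 fold change 2.30, SE 1.34, adjusted p = 0.789, edgeR). Its 7 fragments against 1 gave a scaled ratio of 6.33 (interval 0.814 to 285). Leaving Ctu2 aside, no member was called by edgeR, DESeq2 or limma, where edgeR called 6.6% of all genes. It would be called with the deposited scaling (2.65, against a median of 0.36 over all genes), without ICSI replicate 2, the only ICSI library with a fragment (4.27), and without dICSI-AOA replicate 5 (2.88). For dICSI-AOA over ICSI-AOA it was −0.78 (SE 0.91, adjusted p = 0.936, edgeR), a 95% interval of −2.56 to 1.004, and, Ctu2 aside, again no member was called by the 3 tools, with 6.6% of all genes called by edgeR. Both AOA groups were set against the same ICSI libraries.

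Of the 3 Elongator subunits described, all but Elp4 were at the floor of the measurement. Elp4, part of the ring-shaped accessory module of the complex (chr2:105701027-105904564, − strand), had 4, 0 and 0 fragments in ICSI, 3, 5 and 1 under ICSI-AOA, and 4, 5 and 2 under dICSI-AOA. All 3 groups overlapped. Its mean of 0.329 FPKM was below the filter, and its FPKM reached no more than 0.659 in any library. Its ratio of summed fragments, scaled to library size, was 2.09 for ICSI-AOA over ICSI (95% counting interval 0.583 to 9.28). It was 2.49 for dICSI-AOA over ICSI (0.737 to 10.7) and 1.19 for dICSI-AOA over ICSI-AOA (0.449 to 3.25), so no difference was detectable at this depth. Per kilobase of longest transcript, Elp4 had 7.87 fragments over the 9 libraries (5.05 to 11.7) and Trmu 9.63 (5.88 to 14.9), levels whose intervals overlap and which lie below that of Ctu2.

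Elp3, the catalytic subunit, had no fragment, which allows up to 1.03 per kilobase over the 9 libraries. Elp2, a subunit built of WD40 repeats, had 1 fragment, in ICSI-AOA replicate 5 (0.302 FPKM). The supply of sulfur was as thin. Nfs1 had 1 fragment each in ICSI-AOA replicate 1 (0.672 FPKM) and dICSI-AOA replicate 1 (0.612 FPKM), and Mocs3 had 1 each in ICSI replicate 2 (0.457 FPKM) and ICSI-AOA replicate 5 (0.524 FPKM). Urm1 had none. Nfs1 shares 148 bp of exon with Romo1 on the other strand, which had 2, 1 and 0 fragments in ICSI, 2, 0 and 1 under ICSI-AOA, and 0, 1 and 1 under dICSI-AOA. Differences between groups could not be seen at these counts in any of the 6 genes with 0 to 2 fragments.

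The rest of the pathway was taken from a list of 10 genes that act beside these (Elp5, Elp6, Alkbh8, Trmt112, Kti12, Dph3, Mpst, Lyrm4, Mto1 and Gtpbp3), of which 3 were tested. Elp6, Alkbh8, Mpst and Lyrm4 were at 0, and Gtpbp3 had 12 fragments, Kti12 2 and Dph3 1. Elp5, which forms the accessory ring with Elp4 and Elp6, had 23, 35 and 23 fragments in ICSI, 35, 25 and 28 under ICSI-AOA, and 20, 23 and 32 under dICSI-AOA. It was detected in every library, with overlapping groups, while Elp3 and Elp6 of the same complex were at 0. Its log2 fold changes were 0.02 (SE 0.28), −0.25 (SE 0.29) and −0.27 (SE 0.28) for ICSI-AOA over ICSI, dICSI-AOA over ICSI and dICSI-AOA over ICSI-AOA. None was called by edgeR, and the first changed sign without ICSI replicate 2 (−0.01), ICSI replicate 6 (−0.07) or ICSI-AOA replicate 1 (−0.12) and the second with the deposited scaling (0.12) and in FPKM by limma on log2(FPKM + 1) (0.18), both below the median of all genes tested in those fits (0.36 and 0.28).

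Trmt112, which activates the methyltransferase Alkbh8 and several other methyltransferases, had 39, 41 and 36 fragments in ICSI, 32, 35 and 31 under ICSI-AOA, and 31, 32 and 26 under dICSI-AOA. In fragments and CPM all libraries of both AOA groups lay below the ICSI libraries, as groups did without overlap for 13.3% (ICSI-AOA with ICSI) and 11.5% (dICSI-AOA with ICSI) of genes tested in either direction. In deposited FPKM both AOA groups overlapped ICSI (39.8 to 47.7), with ICSI-AOA replicate 1 at 45.0 and dICSI-AOA replicate 4 at 42.9. Trmt112 was lower by edgeR for dICSI-AOA over ICSI (log2 fold change −0.53, SE 0.25, adjusted p = 0.733), the only call of the 3 genes. The call was lost under DESeq2, under limma on log2(FPKM + 1) (−0.20) and without any 1 of 8 of the 9 libraries, where it ranged from −0.57 to −0.42. It shares 409 bp of exon with Prdx5 on the other strand.

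Mto1, which works with Gtpbp3 on the side chain of the tRNAs that Trmu thiolates, had 1, 6 and 2 fragments in ICSI, 0, 2 and 1 under ICSI-AOA, and 3, 3 and 6 under dICSI-AOA. Its log2 fold change was −1.55 (SE 1.0, adjusted p = 0.795, edgeR) for ICSI-AOA over ICSI and 1.83 (SE 0.96, adjusted p = 0.782, edgeR) for dICSI-AOA over ICSI-AOA, and neither was called. The second was called by limma on log2(FPKM + 1) (1.64). For dICSI-AOA over ICSI it was 0.28 (SE 0.81) and changed sign without ICSI replicate 2 or dICSI-AOA replicate 5 (−0.06 and −0.09). For ICSI-AOA over ICSI none of the 3 genes was called by edgeR, DESeq2 or limma. Their median log2 fold changes were −0.35, −0.25 and −0.17 in the 3 comparisons, beside −0.02, −0.01 and −0.02 over all genes tested.

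**Figure D4:**
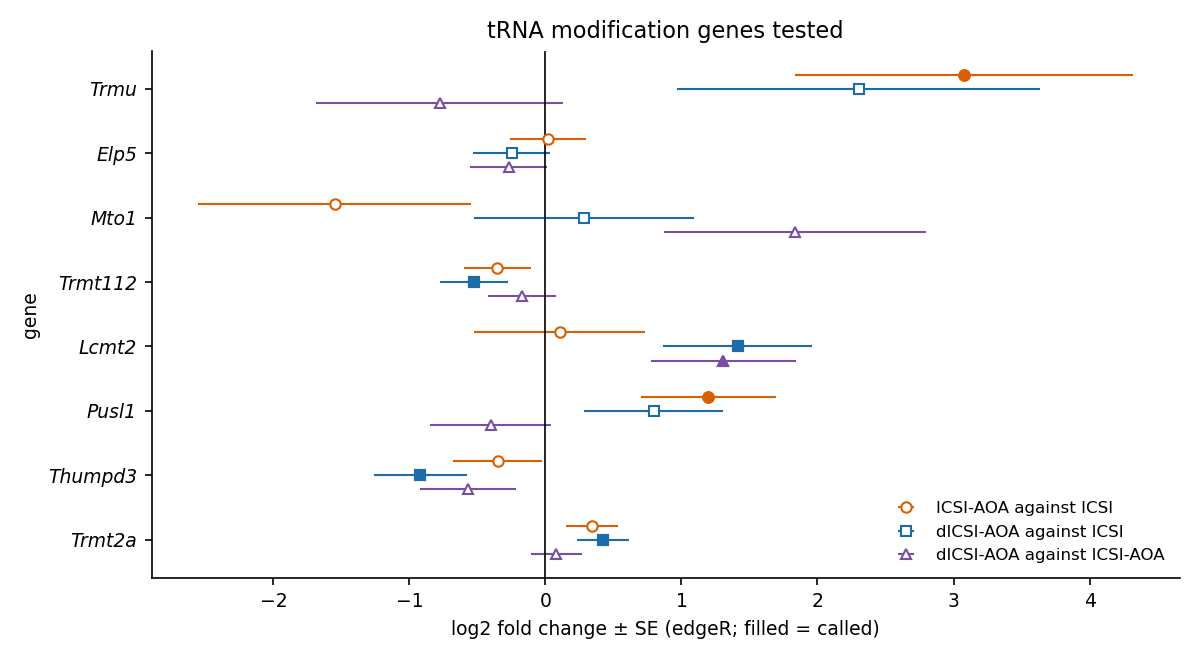
Log2 fold change ± SE (edgeR) of Trmu, of Elp5, Mto1 and Trmt112, and of the called genes among other tRNA modification genes, for the 3 comparisons, with called values filled. Trmu has the largest value plotted (3.08 for ICSI-AOA over ICSI) and one of the widest error bars (SE 1.24).

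Other tRNA modification genes numbered 65 in the table, of which 18 were tested and 21 (32.3%) were at 0. For ICSI-AOA over ICSI 1 of 18 was called by edgeR, beside 7.06% of all genes. This was Pusl1, a pseudouridine synthase (log2 fold change 1.20, SE 0.49, adjusted p = 0.599), with 5, 6 and 5 fragments in ICSI and 13, 6 and 21 in ICSI-AOA, and the call was lost without ICSI-AOA replicate 5 (0.71) or ICSI replicate 6 (1.17). For dICSI-AOA over ICSI 3 of 18 were called, beside 6.6% of all genes. Summed trophectoderm markers also differed between these groups (17 to 35 and 11 to 16 fragments), and their part in these calls was not tested. Lcmt2, a tRNA modification enzyme of wybutosine synthesis, was called higher (1.41, SE 0.55, adjusted p = 0.580, edgeR). It had 3, 2 and 7 fragments in ICSI and 9, 15 and 12 in dICSI-AOA. Trmt2a, a uracil methyltransferase, was called higher (0.42, SE 0.19, adjusted p = 0.712, edgeR), but not by DESeq2. It had 60, 75 and 75 fragments in ICSI and 95, 99 and 117 in dICSI-AOA. Thumpd3, a guanosine methyltransferase of tRNAs, was lower (−0.92, SE 0.34, adjusted p = 0.542, edgeR), at 16, 30 and 49 fragments in ICSI against 19, 23 and 13 in dICSI-AOA, and the call was lost without ICSI replicate 6 (−0.44) or dICSI-AOA replicate 5 (−0.70).

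For dICSI-AOA over ICSI-AOA only Lcmt2 of the 18 was called by edgeR (1.31, SE 0.53, adjusted p = 0.660), from 3, 7 and 4 fragments to 9, 15 and 12. DESeq2 did not call it in either comparison. Lcmt2 was lost for dICSI-AOA over ICSI without ICSI replicate 5 (1.03) or dICSI-AOA replicate 4 (1.18), and Trmt2a without ICSI replicates 2 (0.39) or 5 (0.39) or dICSI-AOA replicates 4 (0.41) or 5 (0.35). Against ICSI-AOA, Lcmt2 was lost without ICSI-AOA replicate 1 (1.08) or 5 (1.21) or dICSI-AOA replicate 4 (1.07). All 4 called genes overlap a gene on the other strand (Pusl1 with Ints11, Lcmt2 with Adal, Trmt2a with Dgcr8 and Thumpd3 with Gt(ROSA)26Sor). So do 13 of the 18 genes tested here and 1870 of all 4304 genes tested, and a link between calls and overlap was not tested. The median log2 fold changes of the 18 genes by edgeR were 0.08, 0.18 and 0.09 in the 3 comparisons, beside −0.02, −0.01 and −0.02 over all genes tested. DESeq2 called 0, 1 and 0 of the 18, where it called 3.39%, 3.09% and 2.81% of all genes. Limma on log2(FPKM + 1) called 3, 5 and 1, where it called 7.71%, 10.1% and 5.83% of all genes and the median of all genes was 0.20, 0.28 and 0.09.

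The 9 genes that charge tRNAs for lysine, glutamate and glutamine, found in the table, included 4 tested genes, Gatc, Aimp2, Ears2 and Qars. Gatc, a subunit of the mitochondrial glutamine pathway, had 34 to 65 fragments per library, and Ears2, the mitochondrial glutamate enzyme, 21 to 38. Cytosolic Kars and Eprs, the lysine and the glutamate and proline enzymes, had 1 and 3 fragments in all. None of the 4 was called in the 3 comparisons by edgeR or DESeq2, also at an unadjusted p of 0.05, and limma on log2(FPKM + 1) called 0, 2 and 1, beside 7.71%, 10.1% and 5.83% of all genes. These were Aimp2 and Qars against ICSI, and Qars against ICSI-AOA. Qars had a mean of 1.03 FPKM in ICSI, 0.673 in ICSI-AOA and 6.44 in dICSI-AOA, from 5, 7 and 10 fragments. It thus passed the filter largely through the dICSI-AOA libraries, and its calls are a description and no support for a change. The median log2 fold changes of the 4 genes by edgeR were 0.14, 0.36 and 0.22, beside −0.02, −0.01 and −0.02 over all genes tested, and by limma 0.19, 0.56 and 0.23, beside 0.20, 0.28 and 0.09.

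Of the 24 other tRNA modification genes with a partner on the other strand, 3 were at 0 and 13 had 10 fragments or more. Of the 41 without one, 18 were at 0 and 9 had 10 fragments or more. The same split over all genes of the table left 52.4% of genes with a partner and 18.9% of genes without at 10 fragments or more. What part the counting of overlapping genes has in the level of Ctu2 was not tested.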

How the data were processed

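The authors trimmed paired-end reads with cutadapt 1.9.3, aligned them to mm10 with HISAT2 and ran Cuffdiff on Ensembl gene models, and the versions of HISAT2 and Cuffdiff and the strand setting are not given in the sources used here. Libraries were made with a SMARTer Stranded kit by the paper and with a TruSeq Stranded kit by the labels. The authors deposited FPKM and estimated counts for each gene and library. Within each library the deposited estimated counts were whole multiples of 1 step for 95.7% to 96.2% of values above 0 (tolerance 0.01). They were divided by the step, the deposited scaling of that library, and rounded to fragments, of which libraries held 128176 to 172307.

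The 4304 genes whose FPKM averaged 1 or more entered edgeR 4.0.16 on R 4.3.3 (TMM scaling, quasi-likelihood test, two-sided, 1 mean per group over all 9 libraries), in 3 comparisons, with Benjamini-Hochberg adjustment over all genes tested. This test on recovered fragments stands in place of a test on FPKM. Called means a fold over 1.3 and an unadjusted p under 0.05, the thresholds of the paper. Counting intervals cover counting error only and leave out the spread between libraries. Ratios of summed fragments are scaled by the TMM library sizes of the groups. Intervals of ratios are exact binomial, those of shares are Wilson, both at 95%, and a total of 0 allows up to 3 counts. Intervals of log2 fold changes are 1.96 SE.

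The members and gene lists were chosen with earlier results of these data known, the motifs with the sequences in view, and the 100 kb window around Ctu2 after its values were seen. Genes named are 9 members (a further one is not reported here), every gene of the pathway list that passed the filter, genes overlapping a member by at least 100 bp of exon on the other strand, the up to 4 called genes with the smallest p in the other lists, and the 5 genes most like Ctu2 by each of 2 measures. Other genes are named for their fragments only. Gene models, overlaps and lengths were from GENCODE vM21, to which 96.8% of genes matched. Of the lists, Dus2, Trmt61b and Gatb were not matched by symbol. Alternatives were DESeq2 1.42.0, limma 3.58.1 on log2(FPKM + 1) and log2(FPKM + 0.1), other scalings, filters of 0 and of a mean of 10 fragments, no trend in the dispersion, a fit of the 6 libraries at hand, a replicate block, and each library left out in turn.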

Additional observations from a re-analysis of the deposited data

How the results depend on the processing

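By edgeR 7.06%, 6.6% and 6.6% of all genes tested were called for ICSI-AOA over ICSI, dICSI-AOA over ICSI and dICSI-AOA over ICSI-AOA. Leaving Ctu2 aside, Trmu was the only member above the filter, and the counts of members called were 1, 0 and 0 in this order. The first fell to 0 with the replicate block, and the second rose to 1 with the deposited scaling, under which the median over all genes tested was 0.25, 0.36 and 0.09 on the log2 scale. With 1 library left out they ranged from 0 to 1, 0 to 1 and 0 to 0. With a mean of at least 10 fragments Trmu could not be fitted. The fitted values of Ctu2, which was chosen on these libraries, ran from 1.11 to 1.70 for ICSI-AOA over ICSI and from −1.67 to −1.24 for dICSI-AOA over ICSI-AOA, as a description. Trmu, which passed the filter through the AOA libraries, had log2 fold changes of 1.91 to 5.05, 1.27 to 4.27 and −1.59 to −0.20. Without the group means, the correlation of ICSI-AOA with dICSI-AOA libraries of equal replicate number was 0.035, −0.034 and 0.059, and that of unequal numbers −0.078 to 0.039. Counting error enters all of these, and whether libraries of equal number share a batch was not tested. With the replicate block 240, 241 and 291 of all genes were called, against 304, 284 and 284.

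Changes of direction were as follows, and the cause was not tested. For ICSI-AOA over ICSI, Elp5 (0.02) was −0.076 with the replicate block and −0.12 to 0.16 with 1 library left out, Lcmt2 (0.10) was −0.29 to 0.77 and Thumpd3 (−0.35) was −0.61 to 0.13 with 1 library left out. For dICSI-AOA over ICSI, Elp5 (−0.25) was 0.12 with the deposited scaling and 0.18 by limma with either pseudocount, and Mto1 (0.28) was −0.16 with the replicate block and −0.086 to 1.13 with 1 library left out. For dICSI-AOA over ICSI-AOA, Trmt112 (−0.17) was 0.084 and 0.086 by limma with a pseudocount of 1 and 0.1, and Pusl1 (−0.40) was −0.75 to 0.085 with 1 library left out. Depth limits these values. Of the 9 genes 7 were below the filter on mean FPKM, among them Elp4 with more fragments than Trmu, and 3 of these were at 0.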
